A study of Rattus norvegicus with 18 samples.

Results

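Cell cycle and DNA replication genes were taken by name from a list of 44, out of 17455 genes in each expression table. They are 16 genes of DNA replication, 22 of mitosis and 6 that control G1 and S phase. Of these, 42 had values; Cenpe and Anln, both of the mitosis group, were not analysed here for RNA. All 42 had a mean of at least 10 normalised reads, the minimum set for the medians and shares over all genes.

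The cells were H9c2, a myoblast line first grown from rat heart, wild type in every group per the labels. They were untreated controls or had been given bufalin or periplocin, 2 cardiotonic steroids that inhibit the sodium and potassium pump. Each of the 3 conditions has 3 immunoprecipitation (IP) and 3 input libraries of MeRIP-seq, which uses an antibody to enrich RNA carrying N6-methyladenosine (m6A), 18 samples in all. The series asked whether m6A takes part in the cardiac toxicity of the compounds. Bufalin is a bufadienolide with no sugar, whereas periplocin is a cardenolide glycoside. Dose and time of exposure are not in the labels. They also do not say that replicates were separate cultures, so the RNA p-values measure the spread between these samples, which may be technical. What spread the p-values of the m6A peaks measure is not known, as samples may have been pooled for them.

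A dividing cell copies its genome in S phase and separates the copies in mitosis. Cyclin D with CDK4 or CDK6 and then cyclin E with CDK2 inactivate the Rb family, which frees E2F factors to switch on the genes of replication. The MCM complex is loaded on origins by CDC6 and CDT1 and unwinds DNA at the fork, where primase and polymerases follow. Genes of mitosis peak later: they are held down in resting cells by the DREAM complex through the CHR element, often with CCAAT boxes bound by NF-Y, and driven in G2 by B-MYB and FOXM1. Adult heart muscle cells divide little, while H9c2 is a proliferating line.

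The promoters of the members hold letters of both kinds of element. RefSeq promoters (assembly GRCr8, 250 bases before to 50 after the start) were matched for 35 of the 44 members by symbol; Aurkb, Ccna2, Ccnd1, Ccne2, Cdc6, E2f1, Mcm4, Rrm2 and Tpx2 had none in the table. The E2F motif was searched on both strands as TTTCCCGC, TTTGGCGC, TTTCGCGC or TTTGCCGC. It was found in 10 of 13 replication promoters, in 1 of 20 mitosis promoters (Cdk1) and in 2.25% of all 27457 promoters of that length. The CHR, searched as TTTGAA or TTCGAA, was found in 14 of 20 mitosis promoters, in 4 of 13 replication promoters and in 19.5% of all promoters. CCAAT stood in 16 of 20 mitosis promoters, in 10 of 13 replication promoters and in 37.7% of all. Matches of different motifs shared 1 base in Mcm7 (E2F and CCAAT) and 1 base in Mki67 (CHR and CCAAT). Within the 100 bases before the start alone, the E2F motif was left in 5 of 13 replication and 0 of 20 mitosis promoters. The CHR was left in 1 and 9 of them, and CCAAT in 6 and 15. Over all promoters the shares in that window were 0.83% for E2F, 6.1% for the CHR and 17.3% for CCAAT. A match describes the letters only and is no measured binding site.

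The 250 bases before the start are shown for the 3 replication and 3 mitosis members with a listed promoter that had the smallest p-values in either RNA comparison, 5′ to 3′ on the gene's strand, with matches to the 3 motifs in capitals on either strand. Mcm7 holds E2F, CHR and CCAAT matches, Pola1 an E2F and a CCAAT match, and Prim1 none in the stretch shown. Top2a holds 4 CCAAT and 2 CHR matches, Nusap1 2 CCAAT matches, and Kif11 a single CCAAT. In Prim1 the CCAAT match and in Nusap1 the CHR match lie after the start, outside the stretch shown.
Mcm7: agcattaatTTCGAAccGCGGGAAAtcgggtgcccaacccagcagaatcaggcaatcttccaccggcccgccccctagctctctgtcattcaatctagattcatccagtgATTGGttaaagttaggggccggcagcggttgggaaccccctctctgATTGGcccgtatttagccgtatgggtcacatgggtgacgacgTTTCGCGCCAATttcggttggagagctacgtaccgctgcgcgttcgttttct
Pola1: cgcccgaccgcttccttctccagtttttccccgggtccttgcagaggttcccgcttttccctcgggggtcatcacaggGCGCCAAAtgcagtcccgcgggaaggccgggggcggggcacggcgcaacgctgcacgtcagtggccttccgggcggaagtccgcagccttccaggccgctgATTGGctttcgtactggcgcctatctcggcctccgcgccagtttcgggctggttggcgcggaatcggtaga
Prim1: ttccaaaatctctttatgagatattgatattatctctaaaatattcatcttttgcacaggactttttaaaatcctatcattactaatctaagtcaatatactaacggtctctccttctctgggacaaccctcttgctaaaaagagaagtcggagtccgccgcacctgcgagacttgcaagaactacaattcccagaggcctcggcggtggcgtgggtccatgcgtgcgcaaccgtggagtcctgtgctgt
Top2a: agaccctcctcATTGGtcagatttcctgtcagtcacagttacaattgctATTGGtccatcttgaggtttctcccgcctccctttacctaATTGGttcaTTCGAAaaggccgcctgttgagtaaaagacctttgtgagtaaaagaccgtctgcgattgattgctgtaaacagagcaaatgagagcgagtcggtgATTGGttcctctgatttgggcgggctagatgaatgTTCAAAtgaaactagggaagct
Kif11: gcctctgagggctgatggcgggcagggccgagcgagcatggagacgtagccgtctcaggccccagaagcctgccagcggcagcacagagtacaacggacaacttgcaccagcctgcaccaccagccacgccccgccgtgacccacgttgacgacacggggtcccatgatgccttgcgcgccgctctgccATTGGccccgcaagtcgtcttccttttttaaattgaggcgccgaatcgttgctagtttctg
Nusap1: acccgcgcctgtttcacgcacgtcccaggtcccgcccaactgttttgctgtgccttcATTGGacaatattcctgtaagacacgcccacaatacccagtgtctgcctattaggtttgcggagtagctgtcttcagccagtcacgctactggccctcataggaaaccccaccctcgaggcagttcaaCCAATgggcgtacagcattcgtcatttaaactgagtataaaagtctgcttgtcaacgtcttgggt
In GRCr8 these stretches lie, in the order printed, for Mcm7 at chromosome 12, 22163179 to 22163428, minus strand, Pola1 at chromosome X, 62342356 to 62342605, minus strand, Prim1 at chromosome 7, 1031212 to 1031461, plus strand, Top2a at chromosome 10, 84473094 to 84473343, minus strand, Kif11 at chromosome 1, 244536617 to 244536866, plus strand, and Nusap1 at chromosome 3, 127057045 to 127057294, plus strand.

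Neither compound changed the RNA of any cell cycle member past the threshold, an adjusted p under 0.05 by DESeq2 in the authors' deposited tables. With bufalin 0 of the 11 members with an adjusted p were called, against 0.301% of the 3321 genes that had one. With periplocin 0 of 42 were called, against 0.538% of 12445 genes. With p-values adjusted again over all genes that had one, 0 members were called as well, beside 0.0932% and 0.519% of genes. The lowest adjusted p of a member in the authors' deposited tables was 0.537 with bufalin and 0.0873 with periplocin. At an unadjusted p under 0.05, 3 members were lower and 0 higher with bufalin, against 2.07% lower and 3.24% higher among all 10674 genes tested. With periplocin 5 were lower and 0 higher, against 2.28% and 4.25% of 10688 genes. These are unadjusted counts and no member among them is called changed.

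Values per library were not analysed, since the tables hold 1 mean and 1 log2 fold change per gene and comparison. Control and treated means below were worked out from these, in normalised reads (read counts divided by size factors), and the labels give 3 libraries of each kind per condition. Folds are treated over control with a 95% Wald interval from the authors' standard error (SE). The tables do not say if IP or input libraries gave them. Depth per library is unknown; mean levels of the members ran from 94.1 for Gins1 to 20079 for Ccnd1 in the bufalin comparison. Levels are not per length, so sums and ranks of levels given here describe reads and not amounts of RNA. Of the myoblast markers Des, Vim, Myod1, Myog and Acta1 had a control mean of at least 10, while Myf5, Pax7 and Actc1 were at 0. Summed control means in the bufalin comparison were 70550 for the myoblast list, 5431 for cardiomyocyte (7 of 9 markers at that level), 795246 for fibroblast (4 of 7, with Dcn and Tcf21 at 0) and 35957 for smooth muscle (4 of 4). Nearly all of the myoblast sum came from Vim, whose mean over both conditions was 72405. Des, Myod1, Acta1 and Myog had means of 1037, 716, 643 and 12.1. Most of the cardiomyocyte sum came from Tnnt2, with a mean of 4293. Of 4 endothelial markers 1 reached it, with Kdr at 0, and of 4 leukocyte markers 2; these lists summed to 26.3 and 100.2. The median change of myoblast markers was 0.15 (log2, 5 genes) with bufalin and -0.04 (4 genes) with periplocin. All 4 smooth muscle markers were below 0 with bufalin (median -0.08), and 5 of 7 cardiomyocyte markers were (median -0.15). Of 4 fibroblast markers 1 was below 0 with bufalin (median 0.09).

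**Figure D1:**
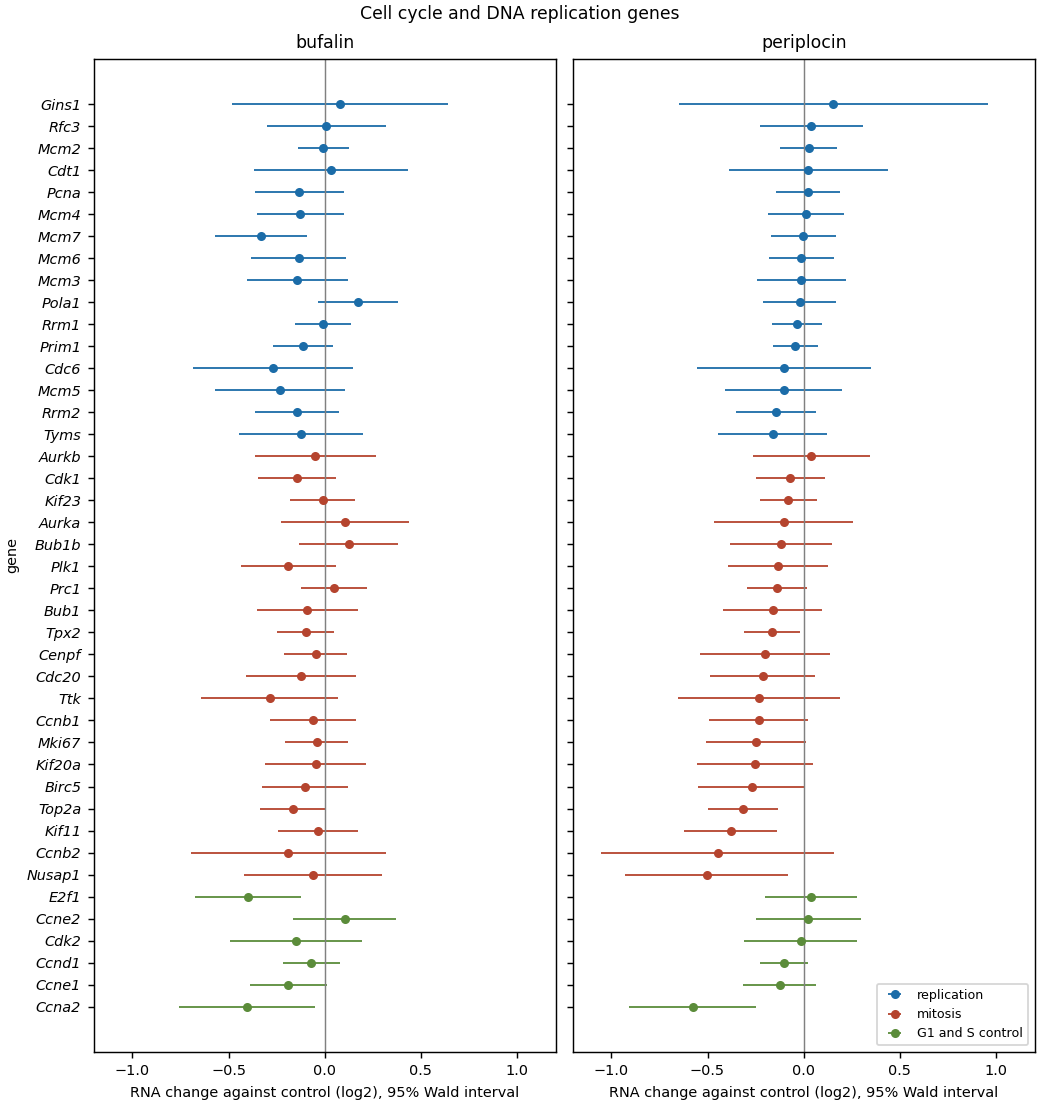
RNA change of the 42 measured members against control (log2, horizontal axis) with bufalin on the left and periplocin on the right; points are the authors' estimates from 3 libraries per condition as labelled, bars are 95% Wald intervals, and colours mark the role. With periplocin 19 of 20 mitosis genes lie left of 0, whereas the replication genes lie on both sides of it.

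Replication genes had a median RNA change of -0.13 (log2) with bufalin, and 12 of 16 were below 0; with periplocin the median was -0.01 and 10 of 16 were below 0. Over all genes tested the median was close to 0, with 5336 of 10674 genes below 0 for bufalin and 5396 of 10688 for periplocin. Weighted by precision, the mean of the 16 was -0.07 with bufalin. None of the 16 passed the threshold with either compound, but only 4 of them had an adjusted p with bufalin. Adjusted again over all genes, 0 of the 16 passed with either compound.

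The MCM helicase accounts for 6 of these genes, Mcm2 to Mcm7, and all 6 estimates were below 0 with bufalin (median -0.14). Mcm7 had the smallest p among replication genes. Its mean was 1592 normalised reads in control and 1265 with bufalin, a fold of 0.794 (95% interval 0.673 to 0.938), with an unadjusted p of 0.0066 in the authors' deposited table and no adjusted p there. With periplocin Mcm7 stood at 1543 in control and 1540 in treated cells, a fold of 0.998 (0.887 to 1.12). The interval with bufalin thus lay below 1, and the one with periplocin spanned it. Mcm5 had a fold of 0.850 (0.672 to 1.08) with bufalin and 0.930 (0.752 to 1.15) with periplocin. Mcm3, Mcm4 and Mcm6 had bufalin folds of 0.906, 0.916 and 0.910, and Mcm2 had 0.995 (0.907 to 1.09). With periplocin the median of the 6 was -0.01, and 4 were below 0, among them Mcm7, which lay at 0.00 and above 0 once the changes were centred on the median gene.

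Among the loading factors, Cdc6 had a fold of 0.830 with bufalin, with an interval from 0.622 to 1.11, and of 0.930 (0.680 to 1.27) with periplocin. Cdt1, its partner in loading MCM, had 1.02 (0.774 to 1.35) with bufalin and 1.02 (0.763 to 1.35) with periplocin. Their control means were low, at 232 and 299 normalised reads in the bufalin comparison, and their intervals are wide. At the fork, Pola1, the catalytic subunit of polymerase alpha, had the highest bufalin estimate of the replication genes: 1656 normalised reads in control and 1866 with bufalin, a fold of 1.13 (0.977 to 1.30). Prim1, the catalytic subunit of primase, which works in the same complex, had a fold of 0.925 (0.830 to 1.03) with bufalin and 0.970 (0.894 to 1.05) with periplocin. Pcna, the sliding clamp, had 0.912 (0.777 to 1.07) with bufalin and 1.02 (0.905 to 1.14) with periplocin. Gins1, of the active helicase, had a bufalin fold of 1.06 with an interval from 0.717 to 1.56, and Rfc3, of the clamp loader, had an interval from 0.812 to 1.24.

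The 3 members of nucleotide supply had every interval across 1. Rrm2, the regulated subunit of ribonucleotide reductase, had a mean of 948 in control and 858 with bufalin, a fold of 0.905 (0.779 to 1.05), and a fold of 0.905 (0.784 to 1.04) with periplocin. Its partner Rrm1 had 0.993 (0.898 to 1.10) and 0.978 (0.894 to 1.07). Tyms, thymidylate synthase, had 0.917 (0.734 to 1.15) with bufalin and 0.894 (0.734 to 1.09) with periplocin, where Rrm2 and Tyms had the smallest p-values of the replication genes. The lower bounds of Mcm2, Rrm1 and Prim1 were 0.830 or higher with both compounds, whereas those of Cdc6, Cdt1, Gins1 and Tyms reached 0.774 or less.

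Mitosis genes had a median RNA change of -0.06 (log2) with bufalin, with 17 of 20 below 0, and of -0.21 with periplocin, with 19 of 20 below 0. The median fold with periplocin was 0.866. None passed the threshold, but only 6 of the 20 had an adjusted p with bufalin. Adjusted again over all genes, 0 passed with either compound. An unadjusted p under 0.05 was reached by 4 with periplocin, all lower, and by 0 with bufalin. Among all genes tested, 2.28% were lower and 4.25% higher at that p with periplocin, and 2.07% and 3.24% with bufalin.

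Top2a and Kif11 had the smallest p-values of the mitosis genes with periplocin. Top2a, topoisomerase II alpha, which untangles sister chromatids, had 7047 normalised reads in control and 5664 with periplocin. Its fold was 0.804 (0.708 to 0.913), with an adjusted p of 0.0952 by DESeq2 in the authors' deposited table. With bufalin Top2a had 7272 in control and 6481 in treated cells, a fold of 0.891 (0.791 to 1.004). Kif11, the kinesin that pushes spindle poles apart, had 1656 in control and 1273 with periplocin, a fold of 0.768 (0.649 to 0.910) and an adjusted p of 0.188 by DESeq2 in the authors' deposited table. With bufalin its fold was 0.976 (0.846 to 1.13). So the periplocin intervals of both genes lay below 1, and their bufalin intervals spanned it.

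Nusap1, which bundles spindle microtubules, had 466 normalised reads in control and 328 with periplocin, the lowest fold of a mitosis gene at 0.705 (0.526 to 0.944). Its unadjusted p was 0.0189 and its adjusted p 0.552 by DESeq2 in the authors' deposited table. Tpx2, the activator of Aurora A on the spindle, had 3213 in control and 2862 with periplocin, a fold of 0.891 (0.805 to 0.986), and 0.933 (0.842 to 1.03) with bufalin. Birc5, survivin of the chromosomal passenger complex, lay just outside an unadjusted p of 0.05 with periplocin, at 863 in control and 716 treated, a fold of 0.830 (0.684 to 1.01). Mki67, the Ki-67 proliferation antigen, followed with 14184 and 11951, a fold of 0.843 (0.704 to 1.01), and Ccnb1, cyclin B1, with 0.850 (0.712 to 1.02). With bufalin these 3 had folds of 0.932, 0.971 and 0.957.

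With bufalin no mitosis gene reached an unadjusted p under 0.05. After Top2a came Ttk, the MPS1 checkpoint kinase, with 268 normalised reads in control and 220 with bufalin, a fold of 0.820 (0.640 to 1.05). Plk1, the polo-like kinase of mitotic entry, had 0.877 (0.738 to 1.04), and Cdk1, the catalytic partner of cyclin B, had 2407 and 2176, a fold of 0.904 (0.785 to 1.04). With periplocin these had folds of 0.851, 0.912 and 0.953, with every interval across 1. Bub1b, Aurka and Prc1 were the mitosis genes above 0 with bufalin, and Aurkb the one above 0 with periplocin. The remaining members Ccnb2, Cdc20, Bub1, Kif20a, Kif23 and Cenpf had periplocin folds between 0.733 (Ccnb2) and 0.946 (Kif23) and bufalin folds between 0.877 and 0.992.

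Precision differed for members of higher expression, of mitosis and of replication. For the 3 mitosis members with a mean between 5000 and 20000 in the periplocin table (Top2a, Cenpf and Mki67), the median SE was 0.132. Over all 1256 genes in that range it was 0.0511. The other members there, Rrm1 and Ccnd1, had SEs of 0.0661 and 0.0634. In the bufalin table the median was 0.0859 for 4 mitosis members against 0.0634 over 1301 genes. Between 1000 and 5000 there, it was 0.117 for 8 replication and 0.103 for 5 mitosis members, against 0.0872 over 3852 genes. Between 100 and 1000 the 11 mitosis members had 0.146, against 0.161 over 3715 genes. Prc1, with a mean of 4805 in the periplocin table, lay just below the first range (SE 0.0785). A larger SE at the same level means a larger spread between libraries, and its part in the calls was not tested.

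The 6 genes that control G1 and S phase did not share a direction with periplocin, where 4 of 6 were below 0 (median -0.06); with bufalin 5 of 6 were (median -0.17). Ccna2, cyclin A2 of S phase and G2, had the smallest p of all members with periplocin. Its mean was 469 normalised reads in control and 314 with periplocin, a fold of 0.670 (0.532 to 0.843), with an adjusted p of 0.0873 by DESeq2 in the authors' deposited table. With bufalin it stood at 484 in control and 366 in treated cells, a fold of 0.756 (0.592 to 0.966). Both intervals lay below 1. The periplocin estimate did not pass the threshold, and the bufalin estimate had no adjusted p in the authors' deposited table.

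E2f1, the E2F factor that activates replication genes, had the smallest p of all members with bufalin. Its mean was 707 normalised reads in control and 536 with bufalin, a fold of 0.758 (0.627 to 0.917), with an unadjusted p of 0.0044 in the authors' deposited table and no adjusted p there. With periplocin it stood at 685 in control and 703 in treated cells, a fold of 1.03 (0.869 to 1.21). Ccne1, cyclin E1, lay just outside an unadjusted p of 0.05 with bufalin, at 0.877 (0.763 to 1.01), and had 0.917 (0.804 to 1.05) with periplocin. Ccne2, cyclin E2, had 1.07 (0.892 to 1.29) and 1.02 (0.842 to 1.23). Cdk2, the kinase both cyclins activate, had 0.902 (0.710 to 1.14) and 0.989 (0.806 to 1.21). Ccnd1, cyclin D1, had the most normalised reads of any member, with 20562 in control and 19596 with bufalin, a fold of 0.953 (0.861 to 1.05), and its periplocin fold was 0.932 (0.855 to 1.02).

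With periplocin the mitosis median lay below the replication median, and with bufalin the order was the other way round by a smaller amount. The replication median minus the mitosis median was 0.19 (log2) with periplocin and -0.06 with bufalin. Weighted by precision, the same differences were 0.15 and -0.01, so the bufalin value was close to 0 by that summary. These are descriptions of 16 and 20 genes, chosen with earlier results known, and no test was made over genes.

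**Figure D2:**
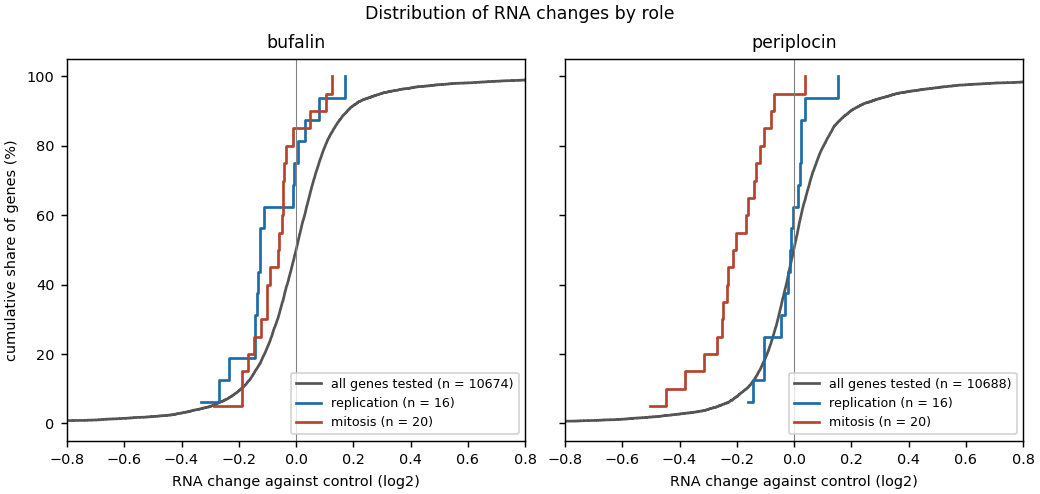
Cumulative share of genes (vertical axis, percent) against the RNA change from control (log2, horizontal axis), for replication genes (n = 16), mitosis genes (n = 20) and all genes tested, with bufalin on the left and periplocin on the right. With periplocin the mitosis curve lies left of the other curves over most of its range, while all genes reach below its lowest change of -0.50. The replication curve crosses that of all genes near 0. The medians are -0.21 for mitosis and -0.01 for replication genes.

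Bufalin was compared directly with periplocin as 1 pair, by an approximate Wald test on how far their log2 fold changes lie apart in each of 10602 genes, with Benjamini-Hochberg adjustment across all of these. Because the doses and times are not in the labels, this compares the cultures as they were treated, not the compounds at a matched dose. Of the 42 members 0 passed, against 0.396% of genes. At an unadjusted p under 0.05, 3 members were higher with bufalin and 2 lower, against 3.1% and 3.24% of genes.

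E2f1 and Mcm7 were lower with bufalin than with periplocin in estimate. The difference of E2f1 was -0.44 ± 0.13 (log2, SE; 95% interval -0.69 to -0.18), with an adjusted p of 0.137 by this Wald test. For Mcm7 it was -0.33 ± 0.11 (-0.54 to -0.12), with an adjusted p of 0.198 by the same Wald test. All 6 MCM genes were below 0 (median -0.13), and 12 of the 16 replication genes were (median -0.07). Pola1 went the other way with 0.19 ± 0.10 (-0.01 to 0.39).

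Mitosis genes had the opposite sign, with 16 of 20 higher with bufalin than with periplocin and a median difference of 0.16 (log2). Over all genes tested, 5374 of 10602 were higher with bufalin, with a median difference of 0.0017. Myoblast markers had the same sign as the mitosis genes in 4 of 4 genes, with a median of 0.21. Fibroblast markers did too in 4 of 4 (median 0.08) and leukocyte markers in 2 of 2 (median 0.29). Smooth muscle markers were below 0 in 4 of 4 (median -0.07) and cardiomyocyte markers in 6 of 7 (median -0.13). The 1 measured endothelial marker was below 0 as well. The part of these markers in the difference was not tested. Kif11 differed by 0.35 ± 0.12 (0.12 to 0.57), with an adjusted p of 0.257 by the Wald test. Nusap1 differed by 0.44 ± 0.20 (0.05 to 0.84), and Prc1, a microtubule bundler of the midzone, by 0.19 ± 0.08 (0.02 to 0.35). Top2a differed by 0.15 (-0.03 to 0.33) and Ccna2 by 0.17 (-0.17 to 0.52), so differences of either sign remain possible for them. For Cdk2, Ccne1 and Ccne2 the differences were -0.13, -0.06 and 0.08, and for Ccnd1 0.03, with an interval from -0.10 to 0.17. The replication median minus the mitosis median was -0.23. With an upper limit of the SE, which ignores that both tables share their controls, 0 members passed as well.

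**Figure D3:**
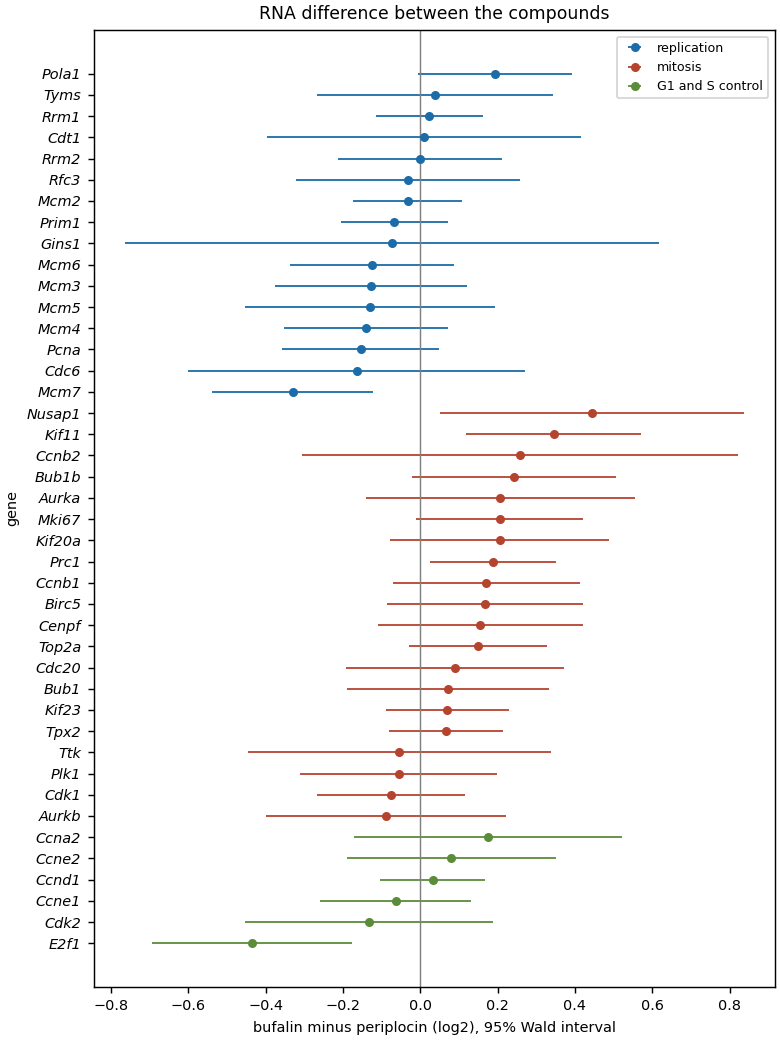
Bufalin minus periplocin difference of RNA changes (log2, horizontal axis) for each of the 42 members, sorted within role; points are the differences and bars 95% Wald intervals. Of 20 mitosis genes 16 lie right of 0 and of 16 replication genes 12 lie left, with most intervals across 0.

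Other genes of the pathway, came from 8 lists with 151 genes and no member. Of these, 129 had a mean of at least 10. With bufalin 0 of the 23 that had an adjusted p were called in the authors' deposited table, against 0.301% of genes, and with periplocin 0 of 129, against 0.538%. The 22 measured genes of spindle and cytokinesis had a median of -0.16 (log2) with periplocin, with 20 below 0, and of -0.04 with bufalin, with 12 below 0. Cdca3, a trigger of mitotic entry, had -0.35 ± 0.12 (SE) with periplocin and -0.27 ± 0.12 with bufalin in the authors' deposited tables. In the direct comparison 21 of the 22 were higher with bufalin (median 0.11). Aspm, which organises spindle poles, was the 1 called of 129, against 0.396% of all genes: its difference was 0.23 ± 0.06 (SE), with an adjusted p of 0.0288 by the Wald test, from 0.08 ± 0.06 and -0.15 ± 0.06 in the authors' deposited tables. With the upper limit of the SE that call was lost (adjusted p of 1 by the Wald test). Kinetochore and checkpoint genes had 17 of 19 below 0 with periplocin (median -0.10), and 15 of 19 with bufalin (median -0.08). Zwint, a kinetochore scaffold, stood 0.17 ± 0.06 above control in the authors' deposited table for periplocin, with an unadjusted p of 0.0070.

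The 41 measured genes of origins and forks had medians close to 0, with 22 below 0 with bufalin and 20 with periplocin. Orc6, of the origin recognition complex, had -0.41 ± 0.14 (SE) in the authors' deposited table for periplocin. Of 9 further genes of nucleotide supply 6 were below 0 with bufalin and 9 with periplocin, with a median of -0.09 (log2) in both. Of the 14 measured genes of the Rb, E2F and DREAM list, 10 were below 0 with bufalin (median -0.04) and 12 with periplocin (median -0.10). Rbbp4, a histone-binding subunit of DREAM, had -0.23 ± 0.08 with periplocin, and Tfdp1, the DP1 partner of E2F, -0.24 ± 0.11 with bufalin in the authors' deposited tables. Mybl2, which encodes B-MYB, and Foxm1 had folds of 0.961 and 0.985 with bufalin and 0.916 and 0.901 with periplocin.

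G1 cyclins and kinases beyond the members had 9 of 10 below 0 with bufalin (median -0.14, log2) and 8 of 10 with periplocin (median -0.06). Cdk4, the partner of cyclin D, had -0.20 ± 0.07 (SE) with bufalin in the authors' deposited table, with an unadjusted p of 0.0069. Cyclins D2 and D3 had bufalin folds of 0.906 (Ccnd2) and 0.882 (Ccnd3). Of the 5 measured CDK inhibitors 4 were above 0 with bufalin and 3 with periplocin, with medians of 0.02 and 0.01. Cdkn1a, which encodes p21, had folds of 1.01 and 1.03, and Cdkn1b, which encodes p27, had 1.10 and 1.01. The 9 measured genes of condensin and cohesin had medians of -0.03 and -0.01.

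The m6A peaks lay mostly on mitosis genes. The authors' peak list for bufalin held 66 peaks on 19 members, and that for periplocin 62 peaks on 18. In the bufalin list 15 of 20 measured mitosis genes had a peak and 3 of 16 replication genes, against 47.9% of 10674 genes tested. In the periplocin list the counts were 13 of 20 and 4 of 16, against 45.5% of 10688 genes. The share of genes with a peak grew with the level: in the bufalin list it was 18.2% of genes with a mean from 10 to 500 and 71.3% of those above 2000. Above 2000 all 7 mitosis genes and 1 of 4 replication genes had one, and between 1000 and 2000, 2 of 2 and 2 of 5. Replication genes with a peak were Mcm4, Pola1 and Rrm1 in the bufalin list, and Cdt1, Mcm3, Pola1 and Rrm1 in the periplocin list. Of the G1 and S phase genes Ccne2 alone had a peak in each list.

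No peak on a member changed past the threshold, an FDR of the change under 0.05, in the authors' lists. With bufalin 0 of 66 did, against 0.0304% of 9866 peaks, and with periplocin 0 of 62, against 0.0436% of 9170. At an unadjusted p under 0.05 there were 3 peaks with each compound, against 3.04% and 3.37% of all peaks. The median change in enrichment was -0.09 (log2) with bufalin, with 42 of 66 below 0, and 0.00 with periplocin, with 31 of 62. Over all peaks the medians were -0.02 and -0.01, with 54.8% and 52.3% below 0. With 1 peak a gene, the most enriched, the bufalin median was -0.14, and over peaks with a fold enrichment of at least 2 it was -0.04. Without Cenpf and Mki67, left out after their values were seen, the medians were -0.13 over 32 peaks and 0.00 over 30. The change was read as treated over control, which the lists do not state.

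**Figure D4:**
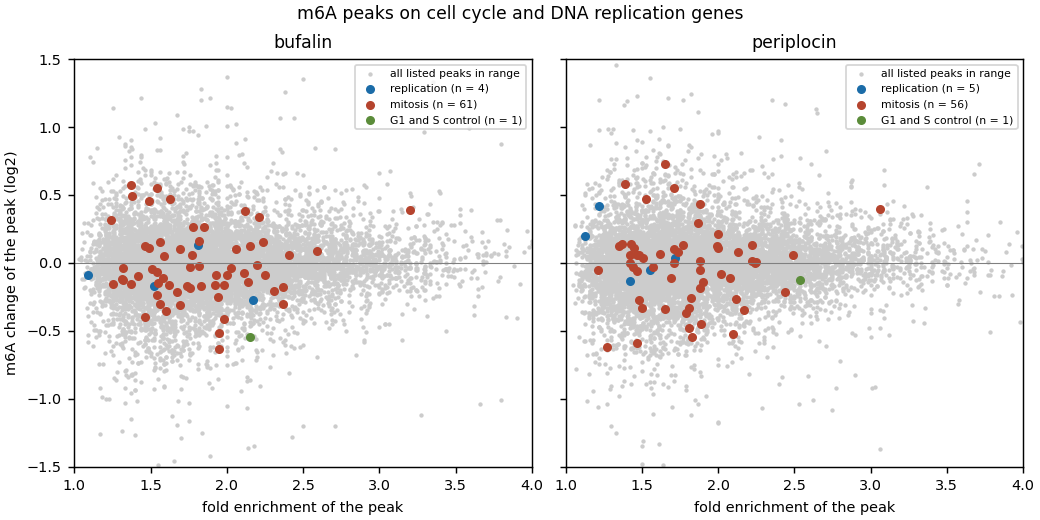
Change of m6A peaks (log2, vertical axis) against fold enrichment of the peak (horizontal axis) for peaks on members, coloured by role, and all listed peaks within the range drawn in grey, with bufalin on the left and periplocin on the right. Member peaks lie within the cloud of all peaks, and mitosis genes hold 61 of 66 and 56 of 62 of them.

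Most of the member peaks sat on Cenpf and Mki67. Cenpf, a kinetochore protein, had 19 and 17 peaks in the bufalin and periplocin lists and Mki67 had 15 and 15, the genes ranked 3 and 4 by number of peaks in each list, where the median gene had 1. The most enriched member peak in both lists lay on Cenpf at chr13:108142832-108142982 (rn6, minus strand), with a fold enrichment of 3.20 in the bufalin list and 3.06 in the periplocin list. On Mki67 the highest was at chr1:208008066-208008251 (minus strand), with 2.59 and 2.44. Next in the bufalin list came another Mki67 peak at 2.41 and 2 Cenpf peaks at 2.37. In the periplocin list the peak of Ccne2 at chr5:24434922-24436005 (plus strand), in 3 blocks that cover 149 bases, had 2.54. It was followed there by a Cenpf peak at chr13:108147924-108148372 with 2.49, the Mki67 peak above with 2.44, and a Mki67 peak at chr1:207994194-207998354 with 2.25.

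The smallest p of a change on a member belonged to the same Mki67 peak in both lists, chr1:208003747-208003947. Its change was 0.47 (log2) with bufalin, with an unadjusted p of 0.0050 and an FDR of 1 in the authors' list, and 0.55 with periplocin, with 0.0032 and an FDR of 0.827. Both comparisons use the same controls. A second Mki67 peak at chr1:208003049-208003248 had 0.58 with bufalin, with an unadjusted p of 0.0186 in the authors' list. The Ccne2 peak had -0.55 with bufalin, with an unadjusted p of 0.0195, and -0.13 with periplocin in the authors' lists. With periplocin a Cenpf peak at chr13:108144426-108144725 had -0.55 and a Mki67 peak at chr1:208000250-208000399 had -0.48. On these 2 genes changes of either sign stood side by side: over the 15 peaks of Mki67 with bufalin 7 were below 0, from -0.21 to 0.58, and over the 19 of Cenpf 13 were, from -0.52 to 0.39. Exon, intron and untranslated region of the peaks were not analysed here, since that needs an annotation of rn6.

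**Figure D5:**
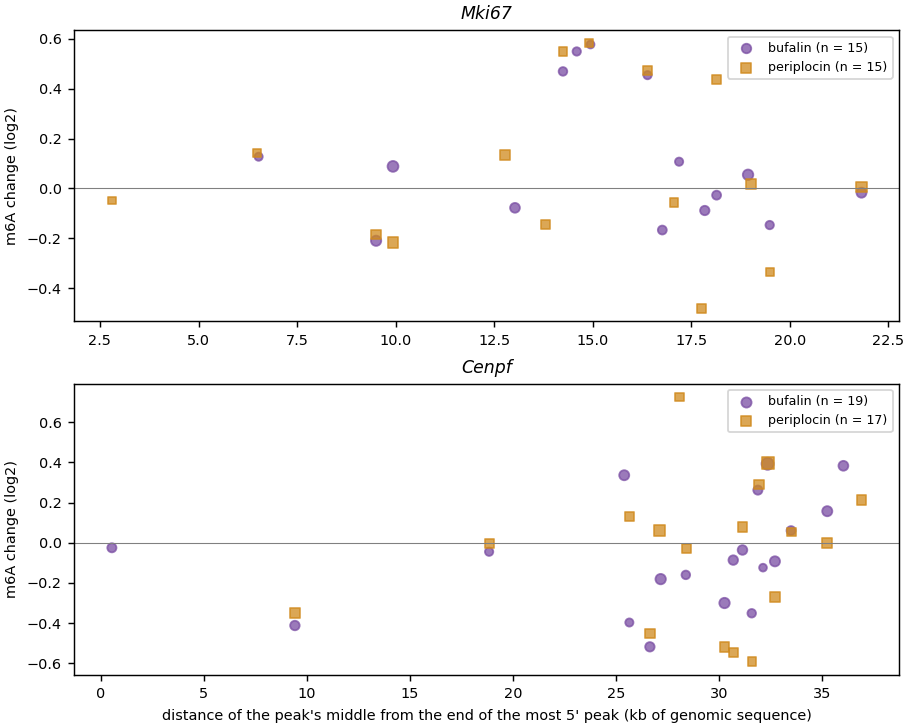
Change of each m6A peak (log2, vertical axis) along Mki67 (top) and Cenpf (bottom), by distance of the peak's middle from the end of the most 5′ peak (kb, horizontal axis); circles are bufalin, squares periplocin, and larger symbols mark higher fold enrichment. Peaks above and below 0 lie along both genes, with 15 and 15 peaks on Mki67 and 19 and 17 on Cenpf.

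Among the other mitosis genes, Top2a had 5 and 4 peaks, Kif11 4 and 4, and Tpx2 4 and 4. The 4 Kif11 peaks were all below 0 with bufalin, from -0.25 to -0.11 (log2), while with periplocin 1 of 4 was. Plk1 had 1 peak, in the bufalin list, with the lowest change of a member there at -0.64 and an enrichment of 1.95. On Tpx2 the 4 changes with periplocin ran from -0.62 to 0.11. The peaks of replication genes had fold enrichments from 1.09 (Pola1) to 2.17 (Mcm4) in the bufalin list and from 1.13 (Mcm3) to 1.72 (Rrm1) in the periplocin list. Their medians were 1.67 and 1.42, against 1.82 and 1.81 over all peaks. Their changes ran from -0.27 to 0.13 with bufalin and from -0.13 to 0.42 with periplocin, where Cdt1 was highest. Mcm7, E2f1 and Ccna2, whose RNA is described above, had no peak in either list.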

How the data were processed

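RNA of H9c2 cells was measured by MeRIP-seq in 18 samples, 6 groups of 3 by condition and library kind, per the labels; libraries were stranded, with unique molecular identifiers. The submitters' processing notes name HISAT2, StringTie and DESeq with build rn6; no versions are given. The signal in the deposited expression tables is the authors' mean of counts divided by size factors, per the file headers. Log2 fold changes and SEs come from DESeq2, per the file headers, and the deposited p-values were taken to be from its Wald test. The test score in the deposited tables has the sign of the fold change with bufalin and the opposite sign with periplocin in all genes, and only the signs of the fold changes were used. Control means worked out from both tables differ by a constant 0.05 (log2); with that offset removed they coincide within 1% in 10602 of 10602 genes if both are read as treated over control, and in 1047 or 1157 if either is turned. The deposited peak lists give fold enrichment, read as a ratio of IP over input, and log10 values of p and FDR, per the file headers; those of the change with periplocin are listed as a score because 1 of the deposited 9170 peaks, on no member, has -434.0, far below what a log10 p usually reaches. They were read as log10 values too, as their headers say, and on members the lowest log10 p is -2.49. No source used here gives the peak caller or says whether samples were pooled for it; each compound has 1 list.

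Members and lists were chosen with earlier results of these data known. Calls over all genes are the authors' adjusted p under 0.05; an adjusted p is given for 3321 genes with bufalin, none with a mean under 2259. Medians use genes with a mean of 10 or more. The difference between the compounds was tested with an approximate Wald test, whose SE was rebuilt from the authors' SEs without the shared controls and which was tested on simulated data. In full are described, per compound, the 5 replication and 5 mitosis members with the smallest p, all G1 and S phase members, members just inside and outside a threshold and the 5 most enriched member peaks of each list; of other lists, up to 4 genes by smallest p, while Mybl2, Foxm1, Cdkn1a and Cdkn1b were added after their values were seen. Thresholds, filters, centring, weights, peak filters and promoter windows were varied. Scripts ran in Python 3.11.15 with pandas 2.3.3, numpy 2.4.6 and scipy 1.17.1, and plots were made with matplotlib 3.10.9.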

Additional observations from a re-analysis of the deposited data

How the results depend on the processing

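Among alternative values of the main counts and medians, 60 stayed within the limit set for them and 0 reversed. For RNA medians the limit was a spread, the median SE of the genes, and for peak medians the SD of their changes. Counts had to equal the main value or lie within 1.5 times of it, and could not be labelled reversed. Some of the 60 could not differ. All measured members passed the filter on the mean, so their medians were the same without it. A median also stays without its lowest and highest gene. A count of 0 peaks cannot rise under a stricter FDR or an enrichment filter. The 4 that moved were counts of members under a looser threshold: 3 for bufalin and 5 for periplocin at an unadjusted p under 0.05, 2 for periplocin at an adjusted p under 0.1 by DESeq2, and 5 between the compounds at an unadjusted p under 0.05. The spread set for medians was wider than several of them, so staying within it says little for those. For the mitosis genes with bufalin it was 0.12, beside a median of -0.06 (log2). Some medians within that spread still moved by over 1.5 times. Weighted by precision, the bufalin replication value went from -0.13 to -0.07 (log2), the periplocin one from -0.01 to -0.02, and replication minus mitosis with bufalin from -0.06 to -0.01. The bufalin peak median of -0.09 became -0.14 with 1 peak a gene and -0.04 at an enrichment of at least 2, and the periplocin one went from 0.00 to 0.02 with 1 peak a gene. Centring subtracted 0.0020 (log2) with bufalin and -0.0030 with periplocin. No paired analysis was possible because each gene or peak has a single value for each comparison and none per sample. For the same reason leaving out replicates and other normalisations were not run. Depth per library is unknown; the median SE of a member was 0.127 (log2) with bufalin and 0.132 with periplocin.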
